A study of Canis lupus familiaris with 8 samples.

Results

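The genes described here are 10 members of the WNT and hedgehog signalling system that patterns the zones of the adrenal cortex, together with genes that mark the capsule and the outer zone: WNT4, RSPO3, ZNRF3, AXIN2, LEF1, GLI1, PTCH1, TCF21, DAB2 and NR0B1. They were taken by gene symbol from 24580 listed genes, and each symbol occurred once. Messenger RNA had been sequenced from the adrenal cortex and the pituitary of adult Beagles and adult Chinese Field Dogs, with 1 arm of each breed exposed to chronic stress and the other, called non-disposal in the labels, read here as unexposed. The 8 combinations of breed, tissue and exposure held 1 library each, so that no group had a replicate, and the labels do not say whether a library came from a single dog or a pool. The kind of stressor and its length were not given in the sources used here.

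The adrenal cortex is renewed from its rim. Cells of the capsule send R-spondin to the outer cortical cells, where it protects the WNT receptors from ubiquitin ligases of the ZNRF3 family and so strengthens the response to WNT4. The response runs through beta-catenin and LEF/TCF factors, is dampened by its own target AXIN2, and upholds the outer zone, the zona glomerulosa, which makes aldosterone. The outer cortex in turn makes Sonic hedgehog, to which the capsule responds by switching on GLI1 and PTCH1.

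Recovered read totals ran from 14327356 to 18712026 per library, and all 10 genes passed the filter, a mean of at least 1 FPKM over the 8 libraries. FPKM, the unit of level used throughout, scales reads by gene length and by library size. Markers of the adrenal cortex (7 of 8 matched) summed to between 14319 and 18788 FPKM in the adrenal libraries and to between 55.7 and 87.2 in the pituitary. Markers of the anterior pituitary (11 of 12 matched) summed to between 31.3 and 53.8 FPKM in the adrenal libraries and to at least 82202 in the pituitary. GH1, the growth hormone gene, was listed at 0 in the unexposed Beagle pituitary, where the authors' deposited table carries the status HIDATA for it, and at 73846 to 81835 FPKM in the other 3, so the marker sum and the read total of that library lack it. The other 10 matched pituitary markers were above 0 in all 4 pituitary libraries. The adrenal libraries also held the adrenal medulla, whose 8 markers summed to between 3199 and 5619 FPKM. Forebrain neuron genes summed to 546 FPKM in the stressed Chinese Field Dog pituitary and to between 3.04 and 5.17 in the other pituitary libraries, so results on the pituitary are given with that library in mind.

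The signals that reach the outer cortical cells were abundant in the adrenal cortex and scarce in the pituitary. WNT4, the WNT ligand of the outer cortex (ENSCAFG00000014661, CanFam3.1 chromosome 2, 77116778 to 77127111), read 48.9 and 51.0 FPKM in the unexposed and stressed Beagle adrenal cortex and 47.5 and 50.4 in those of the Chinese Field Dog. In the pituitary it read 3.89 and 3.52 in Beagle and 6.86 and 6.94 in the Chinese Field Dog, in the same order. The adrenal libraries were almost level and every one stood above every pituitary library. RSPO3, the R-spondin of the capsule (ENSCAFG00000001067, chromosome 1, 65858788 to 65936372), read 30.2 and 31.3 FPKM in the Beagle adrenal cortex and 29.6 and 26.3 in the Chinese Field Dog, unexposed before stressed. Its pituitary values were 1.98 and 6.20 in Beagle and 3.29 and 9.48 in the Chinese Field Dog. The tissues did not overlap, although the stressed pituitaries stood far above the unexposed ones. ZNRF3, the ubiquitin ligase that removes WNT receptors (ENSCAFG00000011973, chromosome 26, 22334997 to 22394024), was low in both tissues, at 5.28 and 5.004 FPKM in the Beagle adrenal cortex and 3.79 and 4.16 in the Chinese Field Dog. It read 3.36 and 3.37 in the Beagle pituitary and 2.95 and 2.63 in the Chinese Field Dog pituitary, and the lowest adrenal value lay only 1.12 times above the highest pituitary value.

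Of the 2 readouts of the WNT response, LEF1 was scarce in the pituitary and AXIN2 was not. AXIN2, the feedback scaffold that is itself a WNT target (ENSCAFG00000011236, chromosome 9, 14560750 to 14589002), read 25.5 and 29.5 FPKM in the unexposed and stressed Beagle adrenal cortex and 26.3 and 22.3 in the Chinese Field Dog. It was also plentiful in the pituitary, at 15.4 and 17.6 FPKM in Beagle and 17.8 and 11.9 in the Chinese Field Dog. The ranges did not overlap but lay close. LEF1, the DNA-binding partner of beta-catenin (ENSCAFG00000011252, chromosome 32, 28514866 to 28633575), read 59.4 and 42.9 FPKM in the Beagle adrenal cortex and 41.9 and 51.9 in the Chinese Field Dog, against 1.69 and 2.99 in the Beagle pituitary and 2.85 and 2.33 in the Chinese Field Dog. LEF1 is also known from T cells, whose 5 matched markers summed to between 2.41 and 8.07 FPKM in the adrenal libraries, and their part in the level of LEF1 was not tested.

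Of the 2 hedgehog response genes, GLI1 was higher in every adrenal library and PTCH1 was not. GLI1, the transcription factor switched on by hedgehog (ENSCAFG00000000223, chromosome 10, 1568657 to 1575761), was the least abundant of the 10 genes in the adrenal cortex, at 2.40 and 2.80 FPKM in Beagle and 3.09 and 2.54 in the Chinese Field Dog. In the pituitary it read 0.260 and 0.987 in Beagle and 0.362 and 0.553 in the Chinese Field Dog, on 14 to 55 reads, below all adrenal libraries. PTCH1, the hedgehog receptor that is also a target of the pathway (ENSCAFG00000001246, chromosome 1, 71246764 to 71305661), was the exception among the 10, with 4.60 and 8.10 FPKM in the Beagle adrenal cortex and 6.88 and 6.20 in the Chinese Field Dog against 9.15 and 9.35 in the Beagle pituitary and 9.21 and 6.48 in the Chinese Field Dog pituitary. Its tissue ranges overlapped.

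TCF21, a transcription factor of capsule and stromal cells (ENSCAFG00000000205, chromosome 1, 26856626 to 26862120), read 18.4 and 19.0 FPKM in the Beagle adrenal cortex and 19.6 and 18.02 in the Chinese Field Dog, with 1.98 to 3.23 in the pituitary. DAB2, an endocytic adaptor found in the zona glomerulosa (ENSCAFG00000018622, chromosome 4, 69625849 to 69648515), was the most abundant of the 10, at 261 and 265 FPKM in the Beagle adrenal cortex and 249 and 257 in the Chinese Field Dog, and 5.21 to 6.14 in the pituitary. DAB2 is also known from macrophages, whose 6 markers summed to 308 and 349 FPKM in the Beagle adrenal libraries and 526 and 524 in the Chinese Field Dog, and their part in the level of DAB2 was not tested. NR0B1, the nuclear receptor DAX1 that holds back steroidogenic factor 1 (ENSCAFG00000013658, chromosome X, 25396522 to 25401715), read 8.96 and 12.9 FPKM in the Beagle adrenal cortex and 11.8 and 9.67 in the Chinese Field Dog. The pituitary, whose gonadotrophs are known to express it, held 2.88 and 2.69 in Beagle and 3.25 and 1.46 in the Chinese Field Dog.

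**Figure D1:**
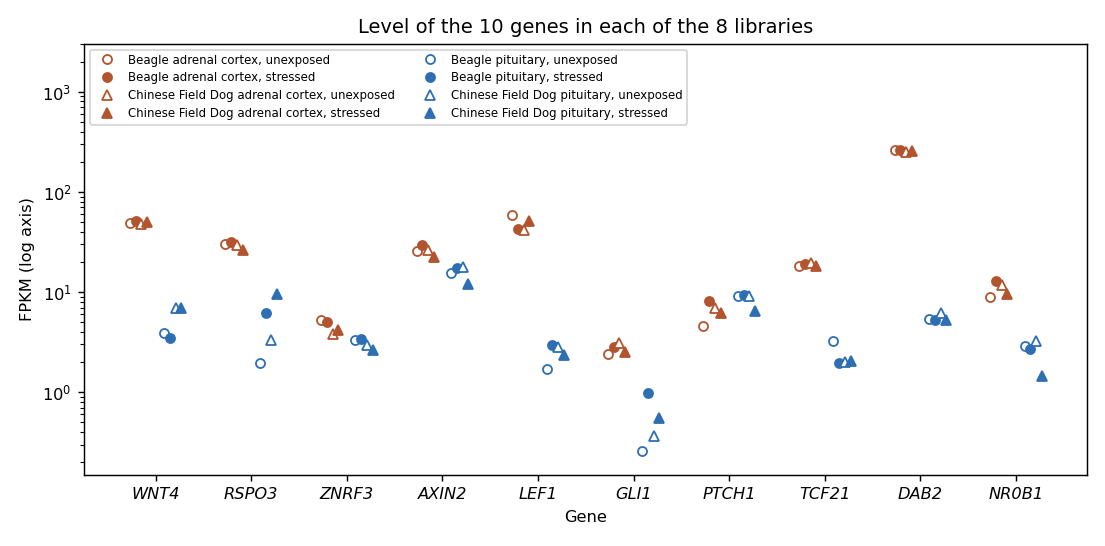
FPKM on a log axis of the 10 genes in each of the 8 libraries, with adrenal cortex in brown and pituitary in blue, circles for Beagle and triangles for Chinese Field Dog, and filled symbols for stressed libraries. For 9 genes all 4 adrenal points lie above all 4 pituitary points, and PTCH1 is the gene whose points overlap.

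Tested across the 4 adrenal and 4 pituitary libraries with limma on log2(FPKM + 1), 9 of the 10 genes were higher in the adrenal cortex at an adjusted p under 0.05, a call that 30.9% of all 14808 tested genes also received. In the same 9 genes the libraries of the 2 tissues did not overlap, which held in that direction for 29.5% of all tested genes. A further 29.4% of tested genes were called lower. The median log2 difference was 2.09 over the 10 genes and 0.0010 over all tested genes. DAB2 had the largest difference of the 10 (log2 5.32, SE 0.08, limma adjusted p 1.63e-08), a 46.8-fold ratio of mean FPKM, and 0.290% of tested genes had a larger log2 difference. LEF1 followed (log2 3.85, SE 0.16, limma adjusted p 8.79e-07), then WNT4 (log2 3.05, SE 0.20), TCF21 (log2 2.59, SE 0.13) and RSPO3 (log2 2.44, SE 0.36).

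NR0B1 (log2 1.75, SE 0.19) and GLI1 (log2 1.29, SE 0.15) were intermediate on this scale. Their order depended on the value added before taking logs. With 0.1 FPKM added, GLI1 had log2 2.25 and NR0B1 2.08, and with 5 FPKM added, 0.48 and 1.06. The ratio of mean FPKM was 5.01 for GLI1 and 4.22 for NR0B1. The 2 members that restrain WNT signalling showed the smallest called differences, AXIN2 at log2 0.70 (SE 0.14, limma adjusted p 0.00332) and ZNRF3 at 0.44 (SE 0.12, limma adjusted p 0.0108), and 19.5% and 28.3% of tested genes lay above them. PTCH1 had a log2 of -0.37 (SE 0.17, limma adjusted p 0.0985), and without the stressed Chinese Field Dog pituitary, its lowest pituitary library, it was called lower in the adrenal cortex (log2 -0.48, limma adjusted p 0.0326). In these bulk samples, fewer cells of a type and less RNA per cell cannot be told apart. The labels do not say how many dogs stand behind a library, or whether an adrenal and a pituitary library shared a dog. Libraries of different breeds cannot have shared one. The p-values speak for the spread among these libraries alone, in which differences of breed and exposure count. Differences between dogs and technical differences cannot be told apart in that spread.

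**Figure D2:**
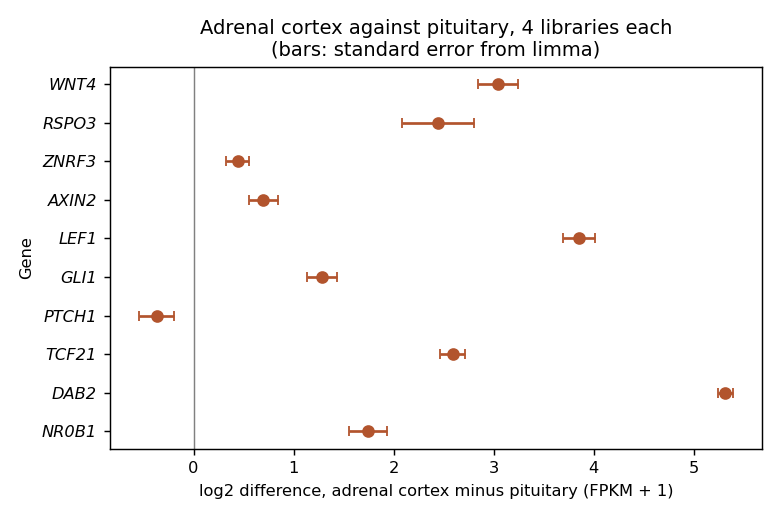
The log2 difference in FPKM + 1 between 4 adrenal cortex and 4 pituitary libraries for each gene, with the standard error from limma as bars. DAB2, LEF1 and WNT4 lie farthest to the right at 5.32, 3.85 and 3.05, and PTCH1 lies to the left of 0 at -0.37.

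Within the adrenal cortex the genes fell into an order of abundance from DAB2 (mean 258 FPKM ± 6.89, SD over 4 libraries) through WNT4 (49.4 ± 1.56), LEF1 (49.0 ± 8.24), RSPO3 (29.4 ± 2.14), AXIN2 (25.9 ± 2.98), TCF21 (18.8 ± 0.68), NR0B1 (10.8 ± 1.84), PTCH1 (6.44 ± 1.46) and ZNRF3 (4.56 ± 0.70) to GLI1 (2.71 ± 0.30). Neighbours in this order had ranges that did not overlap, except WNT4 with LEF1, RSPO3 with AXIN2, and PTCH1 with ZNRF3. RSPO3 still exceeded AXIN2 in all 4 libraries.

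The genes also differed in how steady they were over the 4 adrenal libraries, which differ in breed and exposure. DAB2 varied with a coefficient of variation of 2.67%, a smaller one than in all but 1.3% of 602 genes with a mean level within 2-fold of its own. WNT4 varied by 3.16% and TCF21 by 3.63%, below the 3.76% and 7.30% that counting error alone would give, and only 4.2% and 5.1% of genes of like level were steadier. At the other end, PTCH1 varied by 22.7% with 5.01% from counting, NR0B1 by 17.0% with 5.92%, and LEF1 by 16.8% with 1.98%. The median over 13613 genes with an adrenal mean of at least 1 FPKM was 13.3%. RSPO3 (7.30%), GLI1 (11.2%), AXIN2 (11.5%) and ZNRF3 (15.4%) lay between, in the middle or lower part of genes of like level.

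The first comparison the design implies is stressed against unexposed adrenal cortex. None of the 10 genes differed 2-fold in either breed, against 3% of all tested genes in Beagle and 1.9% in the Chinese Field Dog. With the breeds as replicates, limma called 0 of the 10 genes, with 0 at an unadjusted p under 0.05, and edgeR and DESeq2 also called 0. Limma's log2 estimates ran from -0.08 for LEF1 to 0.29 for PTCH1 (SE 0.27, adjusted p 1), and limma called 0.00675% of all tested genes, which was 1 gene. The authors' deposited table listed no p-value under 0.401 for these genes in the 4 adrenal comparisons, with an FDR of 0.999 throughout.

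The 2 breeds did not move together. RSPO3, AXIN2, GLI1, PTCH1, TCF21 and NR0B1 had higher FPKM in the stressed than in the unexposed Beagle and lower FPKM in the stressed than in the unexposed Chinese Field Dog, a pattern of signs that 22.8% of all tested genes showed. ZNRF3 and LEF1 had the reverse pattern, which 24% of tested genes showed, and WNT4 and DAB2 were higher in both stressed libraries, by log2 0.06 and 0.08 for WNT4 and 0.02 and 0.05 for DAB2. Whether the breeds truly differ in response could not be tested with 1 library per group.

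For 4 of the 8 genes with opposite signs, some ratios lay outside counting error, which is the only error a single pair can show. PTCH1 stood higher in the stressed Beagle by log2 0.82 on scaled reads (95% counting interval 0.61 to 1.03), on 549 against 280 reads, and in the Chinese Field Dog its ratio was -0.15 (interval -0.35 to 0.05). NR0B1 had 0.53 (interval 0.29 to 0.78) in Beagle and -0.28 (interval -0.52 to -0.04) in the Chinese Field Dog. For LEF1 the signs were turned, at -0.47 (interval -0.55 to -0.39) in Beagle and 0.31 (interval 0.23 to 0.39) in the Chinese Field Dog. AXIN2 had 0.21 (interval 0.11 to 0.31) and -0.24 (interval -0.35 to -0.14). The only gene with the same sign in both breeds whose interval left out 0 was DAB2 in the Chinese Field Dog, at 0.05 (interval 0.02 to 0.08). These intervals cover counting error only and say nothing of the spread between dogs.

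The libraries that stood higher for those 6 genes, the stressed Beagle and the unexposed Chinese Field Dog, were also the 2 deepest adrenal libraries, with 18109610 and 18712026 recovered reads against 15803903 and 16289203. FPKM is corrected for depth, and the part of depth in the pattern was not tested. The 7 matched adrenal cortex markers summed to 14319 and 14354 FPKM in those 2 libraries and to 16105 and 18788 in the other two. The 8 medulla markers summed to 5619 in the unexposed and 4727 in the stressed Beagle, and to 3485 and 3199 in the Chinese Field Dog. In Beagle, CHGA alone of these was higher in the stressed library, at 1920 against 1752 FPKM. TH read 255 and 142 in the unexposed and stressed Beagle, DBH 758 and 467, and PNMT 962 and 584. In the Chinese Field Dog, PNMT (345 and 382) and CHGB (1283 and 1414) were higher in the stressed library and the other medulla markers lower. Fat markers (4 of 6 matched) summed to 55.2 FPKM in the unexposed and 9.67 in the stressed Beagle and stood at 23.0 and 34.2 in the Chinese Field Dog. Fibroblast markers (6 of 6) summed to 582 and 483 in Beagle and 390 and 483 in the Chinese Field Dog. The part of these tissue shares in the ratios was not tested.

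**Figure D3:**
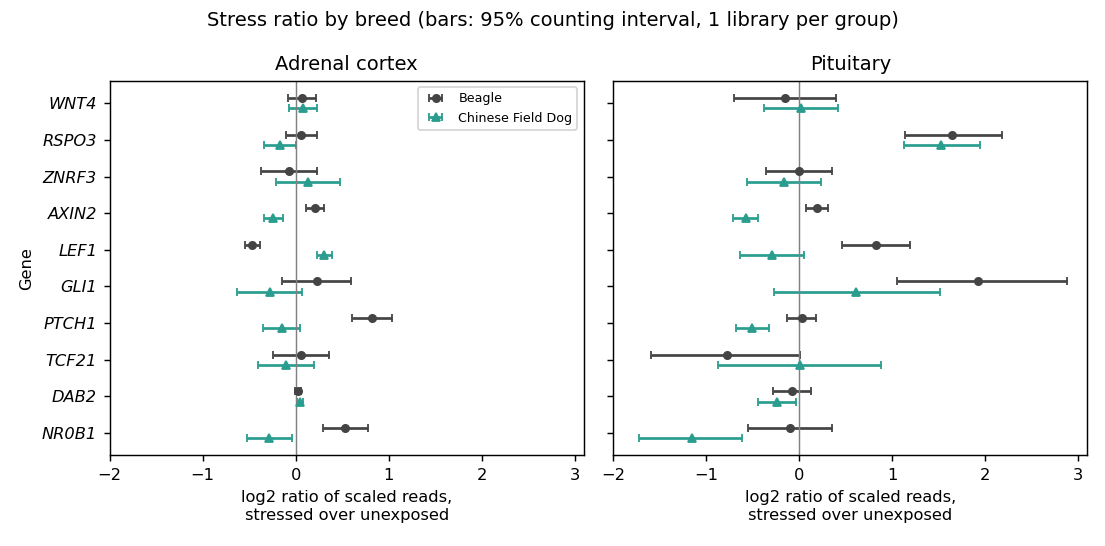
The log2 ratio of scaled reads, stressed over unexposed, for each gene in the adrenal cortex (left) and the pituitary (right), with Beagle in grey circles, Chinese Field Dog in green triangles and 95% counting intervals as bars. In the adrenal cortex PTCH1, NR0B1, AXIN2 and LEF1 have breeds on opposite sides of 0, and in the pituitary RSPO3 lies at 1.64 and 1.53 in the 2 breeds.

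The next comparison is between breeds in the adrenal cortex. None of the 10 genes differed 2-fold between Chinese Field Dog and Beagle, against 4.15% of tested genes in the unexposed and 2.81% in the stressed libraries. With the exposures as replicates limma called 0 of the 10, with 0 at an unadjusted p under 0.05, while edgeR and DESeq2 also called 0, and the share of all tested genes called by limma was 0.0338%. The gene nearest to a call was ZNRF3, lower in the Chinese Field Dog by log2 -0.39 in the unexposed and -0.22 in the stressed libraries (limma log2 -0.31, SE 0.13, adjusted p 0.779). WNT4, RSPO3, ZNRF3 and DAB2 were lower in Chinese Field Dog libraries of both exposures, a pattern of signs seen in 32.4% of tested genes. With each library centred on its median, WNT4 was higher in Chinese Field Dog libraries of both exposures, RSPO3 was so in the unexposed and DAB2 in the stressed libraries, and ZNRF3 alone of these 4 stayed lower under both. The stress and breed comparisons share all 4 libraries.

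In the pituitary, RSPO3 was the gene that stood apart. The stressed library read 6.20 against 1.98 FPKM in Beagle libraries and 9.48 against 3.29 in Chinese Field Dog libraries, on 136 against 42 and 190 against 72 reads. On the FPKM + 1 scale the log2 ratios were 1.27 and 1.29, past 2-fold in both breeds, as were upward ratios for 1.2% of tested genes in Beagle and 7.17% in the Chinese Field Dog. Limma gave a log2 of 1.28 (SE 0.13, unadjusted p 0.000632, adjusted p 0.881), and edgeR called 0 of the 10 genes. Of the 10, DESeq2 called RSPO3 alone (log2 1.59, adjusted p 0.00134). Over all 17603 genes it was given, DESeq2 called 62 higher and 6 lower for stress in the pituitary. The other R-spondin of the pituitary, RSPO2, read 4.05 against 1.65 FPKM in Beagle libraries and 4.05 against 2.76 in Chinese Field Dog libraries. The forebrain neuron markers summed to 5.17 against 3.04 FPKM in Beagle libraries and 546 against 4.58 in Chinese Field Dog libraries. Fibroblast markers summed to 163 against 128 FPKM in Beagle libraries and 98.4 against 173 in Chinese Field Dog libraries. The part of these tissue shares in the RSPO3 ratios was not tested.

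RSPO3 and GLI1 were the 2 genes higher in both stressed pituitaries, a pattern of signs that 22.3% of tested genes showed. GLI1 stood at 55 against 14 reads in Beagle libraries and 28 against 20 in Chinese Field Dog libraries (limma log2 0.42, SE 0.19, adjusted p 0.881). NR0B1 was lower in the stressed Chinese Field Dog pituitary at 41 against 100 reads and nearly level in the Beagle at 83 against 86 (limma log2 -0.43, SE 0.28, adjusted p 0.881). Limma called 0.00675% of all tested genes for stress in the pituitary. WNT4 stood higher in the Chinese Field Dog pituitary than in the Beagle under both exposures (limma log2 0.75, SE 0.13, unadjusted p 0.00394, adjusted p 0.425), as did RSPO3 (limma log2 0.53, SE 0.13, unadjusted p 0.0158, adjusted p 0.547), and 24.1% of tested genes were higher there under both exposures. Limma, edgeR and DESeq2 each called 0 of the 10 for breed in the pituitary, where limma called 0.0203% of all tested genes. In the authors' deposited table the lowest p-value of the 10 genes in the 4 pituitary comparisons was 0.269, with an FDR of 0.999.

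The wider pathway was described with 9 lists of 144 genes, of which 134 were matched by a symbol used once and 110 were tested, with 6 genes standing in 2 lists. Over all 14808 tested genes, limma called 4569 (30.9%) higher and 4355 lower in the adrenal cortex. The called counts of each list are to be read beside these shares. Of the other WNT ligands and R-spondins, 8 of 20 were tested, and 2 were higher and 5 lower in the adrenal cortex by limma at an adjusted p under 0.05 (median log2 -1.61). WNT11 (5.23 FPKM ± 1.18, SD, n = 4, against 0.256 ± 0.057) and WNT2B (4.92 ± 0.46 against 0.496 ± 0.181) were higher in the adrenal cortex, as WNT4 was, at levels far below that of WNT4. The pituitary had its own set, with WNT5A at 10.7 ± 1.06 against 1.43 ± 0.26 FPKM in the adrenal cortex, WNT9A at 10.7 ± 1.47 against 1.71 ± 0.31, WNT3 at 5.84 ± 1.27 against 0.391 ± 0.191 and RSPO2 at 3.13 ± 1.16 against 0.155 ± 0.048. WNT4 and RSPO3 thus had partners of their own family with the opposite tissue preference.

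Of the WNT receptors 16 of 18 were tested, with 5 higher and 8 lower in the adrenal cortex (median log2 -0.45). The co-receptor LRP5 read 40.4 ± 2.64 FPKM in the adrenal cortex and 11.03 ± 1.95 in the pituitary, and the atypical receptor RYK 67.9 ± 8.31 against 25.05 ± 3.68. The Frizzled receptors FZD3 (log2 -2.17), FZD6 (log2 -2.09), FZD8 (log2 -2.09) and FZD7 (log2 -1.88) were lower, as was LGR4, an R-spondin receptor, at 22.1 ± 3.05 against 36.2 ± 6.37. Among 16 tested antagonists of 20, 7 were higher and 4 lower (median log2 0.09). FRZB, a secreted decoy of WNT, had 378 ± 20.7 FPKM in the adrenal cortex against 40.7 ± 6.37, and SFRP4 39.0 ± 7.72 against 6.10 ± 1.95. RNF43, the ligase related to ZNRF3, was lower at 0.090 ± 0.054 FPKM against 2.83 ± 0.64, on 1 to 5 reads per adrenal library, so that ZNRF3 was the more abundant of the 2 ligases there.

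Of 21 signal relay genes 19 were tested, with 4 higher and 7 lower, all by under 1 on the log2 scale except PYGO2 (log2 1.36), and CTNNB1, the beta-catenin gene, read 234 ± 24.0 FPKM in the adrenal cortex and 169 ± 12.7 in the pituitary. Of 10 further WNT targets 9 were tested, and 4 were higher and 2 lower (median log2 -0.03). MYC read 20.4 ± 2.11 against 4.27 ± 0.42 FPKM, NOTUM, an enzyme that inactivates WNT proteins, 2.65 ± 1.19 against 0.186 ± 0.106, and TNFRSF19 21.0 ± 3.38 against 7.795 ± 3.18, while CCND1 was lower at 14.8 ± 4.05 against 29.0 ± 5.79. The targets therefore did not share a direction between tissues.

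Of 18 other hedgehog genes 15 were tested, with 5 higher and 4 lower (median log2 0.14). SHH, the ligand of the outer cortex, read 8.67 ± 4.52 FPKM in the adrenal cortex against 0.121 ± 0.139 in the pituitary (log2 2.98), and DHH, a related ligand, 3.99 ± 0.18 against 0.219 ± 0.099. HHIP, a decoy for hedgehog that is a pathway target, was higher at 3.63 ± 0.62 against 0.895 ± 0.4335. SMO, the signalling receptor that PTCH1 restrains, was lower at 9.23 ± 1.29 against 15.3 ± 3.28. PTCH1 thus sided with SMO in direction, without passing the test, while GLI1 sided with SHH, DHH and HHIP. Among the adrenal libraries SHH read 13.7 and 3.37 FPKM in the unexposed and stressed Beagle, on 916 and 251 reads, and 6.81 and 10.8 in the Chinese Field Dog. Its order over the 4 libraries was the exact reverse of that of PTCH1, an order that 3.21% of tested genes had. HHIP followed neither order, at 3.72 and 2.73 in the unexposed and stressed Beagle and 4.16 and 3.90 in the Chinese Field Dog. GLI1 was lowest in the unexposed Beagle, as PTCH1 was. It departed from the order of PTCH1 only in standing higher in the unexposed Chinese Field Dog than in the stressed Beagle, on 177 and 143 reads. NR0B1 had the same order as PTCH1, which 2.86% of tested genes had. DHH stayed between 3.73 and 4.15.

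**Figure D4:**
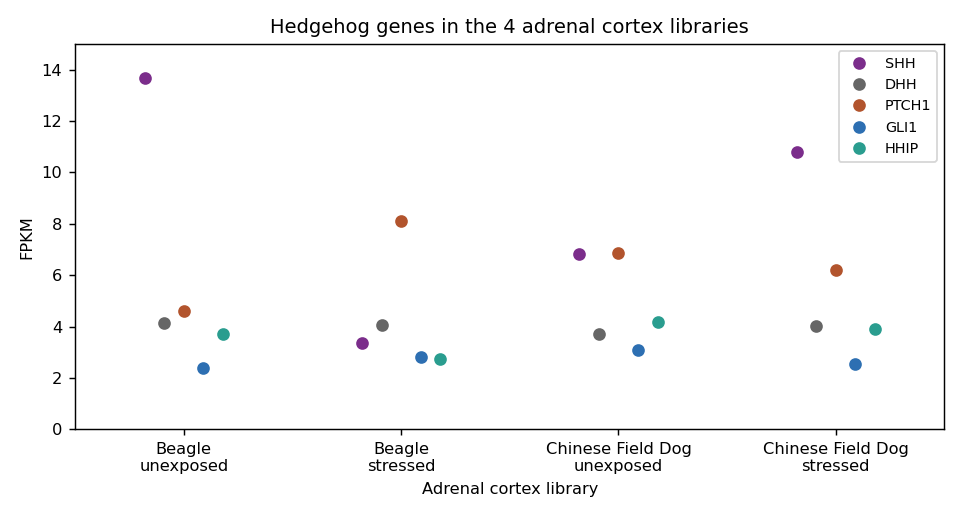
FPKM of the ligands SHH and DHH, the receptor PTCH1, the factor GLI1 and the decoy HHIP in the 4 adrenal cortex libraries, 1 point per gene and library. SHH is highest in the unexposed Beagle at 13.7 and lowest in the stressed Beagle at 3.37, where PTCH1 is highest at 8.10.

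Of 16 zona glomerulosa genes 12 were tested, with 5 higher and 2 lower in the adrenal cortex (median log2 1.23). The angiotensin receptor AGTR1 read 402 ± 67.9 against 35.96 ± 7.99 FPKM, the potassium channels KCNJ5 and KCNK3 111 ± 10.8 against 12.2 ± 3.79 and 77.9 ± 16.9 against 8.32 ± 1.91, and the calcium channel CACNA1H 93.0 ± 13.5 against 34.1 ± 3.48. PCP4 and CACNA1D were lower, by log2 -3.79 and -2.23. Of 12 capsule and stroma genes 9 were tested, with 7 higher and 1 lower (median log2 1.31), among them NR2F2, a nuclear receptor of capsule cells, at 32.4 ± 4.11 against 6.52 ± 0.93 FPKM, and the matrix gene DCN at 283 ± 59.9 against 80.1 ± 22.1. TCF21 moved with this list between tissues, as did the summed fibroblast markers, at 390 to 582 FPKM in the adrenal cortex and 98.4 to 173 in the pituitary. The part of a larger stromal share in the TCF21 and RSPO3 differences was not tested.

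Of 15 partners and targets of NR0B1 12 were tested, with 7 higher and 4 lower. NR5A1, the gene of steroidogenic factor 1, was not matched by a symbol used once, and neither were HSD3B2 and CYP21A2. The steroidogenic genes STAR (6211 ± 1284 FPKM), CYP17A1 (4924 ± 333) and CYP11A1 (1914 ± 259) were far above the level of NR0B1 in the adrenal cortex, and the gonadotroph genes LHB (7729 ± 2115) and FSHB (582 ± 316) were so in the pituitary. For stress in the adrenal cortex, limma, edgeR and DESeq2 called 0 genes of the 9 lists, with 1 list gene at an unadjusted p under 0.05 in limma. For breed in the adrenal cortex, limma and edgeR called 0 and DESeq2 called 1, with 5 at an unadjusted p under 0.05 in limma. In the pituitary limma and edgeR called 0 list genes for stress and for breed, with 7 list genes at an unadjusted p under 0.05 in limma for each. There DESeq2 called 1 list gene for stress and 6 for breed. Over all 17603 genes, DESeq2 called 104 for breed in the adrenal cortex, and 68 for stress and 222 for breed in the pituitary.

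**Figure D5:**
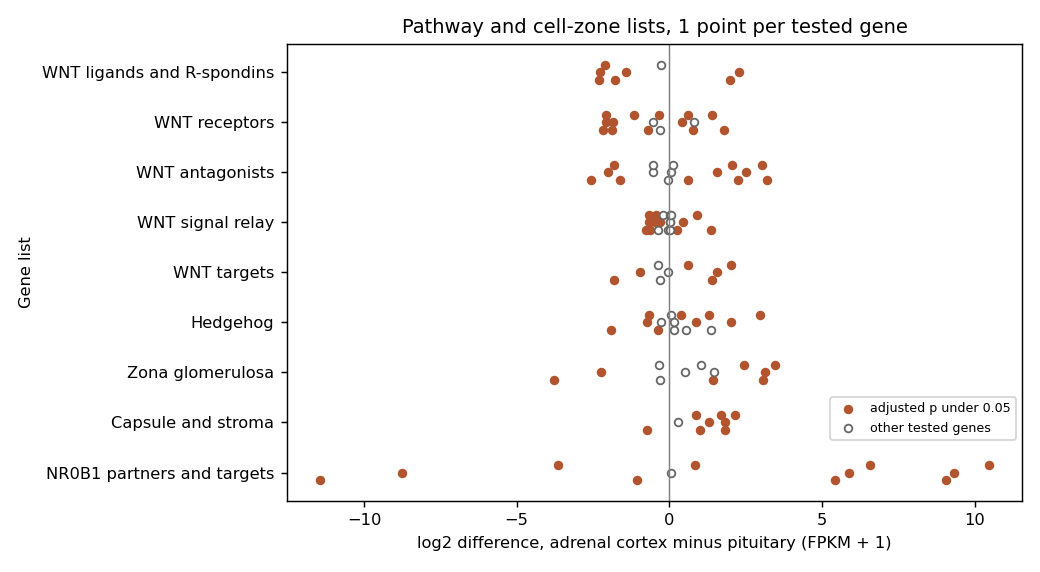
The log2 difference between adrenal cortex and pituitary of every tested gene in 9 lists, 1 point per gene, with filled points for limma adjusted p under 0.05. The capsule and stroma list has 7 filled points to the right of 0 and 1 to the left, while the WNT ligands and receptors have more filled points to the left. Of all 14808 tested genes, 4569 were called higher and 4355 lower.

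Over the 8 libraries, the genes whose pattern in log2(FPKM + 1), centred on each gene's mean, lay nearest to a member were KCNN1 and CTSB for WNT4 (root-mean-square differences 0.19 and 0.20), PPAT and DAZAP2 for GLI1 (both 0.16), CLCC1 and TNKS1BP1 for AXIN2 (0.061 and 0.077) and SLC12A4 and LRP5 for NR0B1 (0.10 and 0.14). The distance is set mostly by the difference between the tissues, which all 8 of these genes shared with their member.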

How the data were processed

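mRNA libraries were made with the TruSeq kit, per the labels' protocols, whose extraction note speaks of spleen while titles and tissue labels give adrenal cortex and pituitary. Reads were aligned with TopHat, version not given, to CanFam3.1, per the submitters' processing notes, and the counting program and annotation are not given in the sources used here. The authors deposited 8 tables of 2 libraries each, in which every library's columns were identical in all tables that held it (16 of 16 column pairs compared). The authors' FPKM values were used for levels and tests. The authors' scaled count columns are a signal, read counts divided by 1 factor per library, and dividing by the step gave whole reads within 0.05 for at least 99.6% of values up to 50 reads in each library. In 2 stressed libraries, Beagle adrenal cortex and Chinese Field Dog pituitary, the step lay close to 1, so their reads are near the true counts rather than exact. The p-value columns are the authors' deposited results for each pair of libraries and were printed only as such, and the deposited log2 columns were not used.

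Genes with a mean of at least 1 FPKM entered a limma 3.58.1 fit (R 4.3.3) on log2 values after adding 1 FPKM, with Benjamini-Hochberg adjustment over all 14808 genes and a threshold of 0.05. Fold changes on that scale understate changes of low genes. The tissue fit took the 8 libraries as 4 against 4. Stress and breed were fitted on 4 log2 ratios, 2 per tissue, with 2 residual degrees of freedom. Alternatives were other pseudocounts and filters, centring, added terms, single-tissue fits, left-out libraries, a block of breed and exposure, and edgeR 4.0.16 and DESeq2 1.42.0 on recovered reads. The scripts were tested on simulated data. Counting intervals are 95% Clopper-Pearson intervals of the read ratio. The 10 genes, the lists and the marker genes were chosen with earlier results of these data known. Named list genes are those called with the largest differences, at most 6 per list, and the 3 most abundant, and for 4 members the 2 genes nearest in pattern are named. Marker lists named only here are endothelial (131 to 175 FPKM summed in the adrenal cortex, 67.9 to 89.5 in the pituitary), liver (277 to 614 and 292 to 460) and kidney (1.31 to 1.68 and 0.879 to 3.91). APOA1 made up most of the liver sum. Each liver gene read higher in the stressed than in the unexposed adrenal library of both breeds. ALB read 0.790 and 27.6 FPKM in the unexposed and stressed Beagle adrenal cortex and 0.121 and 9.09 in the Chinese Field Dog. FGG read 38.4 and 41.5 in Beagle and 9.78 and 106 in the Chinese Field Dog. The part of liver transcripts in the stress ratios was not tested. The result of 1 gene that the rule for list genes names is not reported here.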

Additional observations from a re-analysis of the deposited data

Results flagged for a closer look

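In the pituitary, PTCH1 in the stressed Chinese Field Dog library lay far from the other 3, at 6.48 FPKM against 9.15 to 9.35, with a gap that took up 0.932 of the range of the 4 libraries. TCF21 in the unexposed Beagle pituitary lay far from the other 3 in the same way, at 3.23 FPKM against 1.98 to 2.04 on 38 against 23 to 25 reads, with a gap of 0.955 of the range. Chance alone marks about 1 group in 20 in this way, and 20 groups were looked at.

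DAB2 was higher with stress in the adrenal cortex of both breeds and lower in both pituitaries, a difference between tissues of log2 0.153 (SE 0.18, limma adjusted p 0.942). WNT4 was lower in the Chinese Field Dog than in the Beagle in both adrenal comparisons and higher in both pituitary comparisons, a difference of log2 -0.778 (SE 0.18, limma adjusted p 0.83). RSPO3 did the same with a difference of log2 -0.669 (SE 0.19, limma adjusted p 0.83). With libraries centred on their medians, WNT4 was no longer lower in either adrenal comparison, nor RSPO3 in the unexposed one. None of these 3 passed the test of the difference itself.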

How the results depend on the processing

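The 9 genes called higher in the adrenal cortex were called under every alternative in which they were tested; a minimum mean of 5 FPKM left GLI1 and ZNRF3 untested. A paired fit with a replicate block of breed and exposure, chosen after seeing the data, took the adrenal cortex and pituitary libraries of the same breed and exposure as 4 pairs; it called 8686 genes against 8924 without the block, and the same 9 of the 10 genes. The labels do not say that paired libraries came from the same dogs. For stress in the adrenal cortex limma called 1 gene of all tested, against 4 with a pseudocount of 0.1 FPKM, 0 with 5, 0 with no filter, 2 with a minimum mean of 5 FPKM, 2 with 1 fit per tissue, 0 by edgeR, 11 by DESeq2, and 23 to 26 without 1 library; for the stress difference between tissues 2 were called, against 5, 1 and 1 under the first 3 of these. Breed in the adrenal cortex gave 5 calls, against 8 with a pseudocount of 0.1, 3 with 1 fit per tissue, 0 by edgeR, 104 by DESeq2 and 24 to 33 without 1 library. In the pituitary, stress gave 1 call, against 0 with 1 fit per tissue, 0 by edgeR, 68 by DESeq2 (1 of them among the 10 genes, RSPO3) and 41 to 44 without 1 library, and breed gave 3, against 5 with a pseudocount of 0.1, 0 with 1 fit per tissue, 222 by DESeq2 and 43 to 49 without 1 library. The cause was not tested, except that leaving out a library also leaves a single ratio for its tissue. Without either Beagle library the stress log2 in the adrenal cortex was -0.1296 for PTCH1 and 0.3017 for LEF1, both opposite in sign to the estimate from both breeds, and without either Chinese Field Dog library it was 0.7011 and -0.4593. Low counts limit GLI1 and TCF21 in the pituitary, with 14 to 55 and 23 to 38 reads.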

Other observations

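Among the 4 adrenal libraries, AGTR1, the angiotensin receptor of the outer zone, read 443 and 322 FPKM in the unexposed and stressed Beagle and 370 and 471 in the Chinese Field Dog, so that the unexposed Beagle and the stressed Chinese Field Dog stood highest. Other genes of that zone did otherwise. KCNJ5 was lowest in the unexposed Beagle, at 95.8 FPKM against 110 to 119, and CACNA1H was lowest in the stressed Chinese Field Dog, at 78.8 against 87.5 to 111. KCNK3 read 97.1 and 62.7 FPKM in the Beagle and 86.8 and 64.8 in the Chinese Field Dog, lower in both stressed libraries. NOTUM read 4.41 FPKM in the unexposed Beagle adrenal cortex and between 1.80 and 2.23 in the other 3. These values are descriptions of single libraries, and no test lies behind them.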
